A study of Mus musculus with 9 samples.

Results

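Gene expression in liver macrophages after 10 weeks of a fibrosis-inducing diet was set against that after 7 weeks of the same diet. The comparison used 6 of the 9 libraries of the series, 3 from each time, and all 11783 genes of the 24312 in the table that reached 1 FPKM (fragments per kilobase of transcript, scaled to the number of mapped reads) in at least 3 of the 9 libraries. All mice were wild type. The 10w mice had received CDA-HFD for 10 weeks and the 7w mice for 7 weeks, while the ND mice had stayed on a normal diet. ND values are given as a level of reference, but the ND libraries also entered the filter and the estimate of spread behind every p. CDA-HFD is a choline-deficient high-fat diet with defined amino acids, and it produces steatohepatitis with scarring. According to the study's methods the mice were male and young adults at the start. The 10w mice were therefore also older at sampling than the 7w mice if their starting ages were alike, and age and time on the diet cannot be told apart. Libraries are named by group and replicate number (10w 1), and each came from a different animal. No transgene or deletion was involved. The sorted cells were Ly6C-low and F4/80-positive, a gate that can hold resident macrophages, macrophages that came from monocytes and Ly6C-low monocytes together. In its flow cytometry the study also leaves out cells with markers of B, T and NK cells, eosinophils and neutrophils. Whether this held for the sort of these libraries is not given in the sources used here.

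In a healthy liver the macrophages along the sinusoids are Kupffer cells, which carry Timd4, Clec4f and Marco and take up particles and dying cells. In steatohepatitis many of them are lost, and monocytes enter the tissue and become macrophages that express Spp1, Trem2, Cd9 and Gpnmb, genes of lipid handling and of scar tissue. Ly6C-low patrolling monocytes, which crawl along vessel walls, depend on Nr4a1 and express Ace, Spn, Cx3cr1 and S1pr5. The comparison asks what still changes once the diseased macrophage population is in place, between the earlier and the later time.

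The libraries were of like size. FPKM summed to 444816 to 458788 per library, and 10990 to 11273 genes reached 1 FPKM. The number of reads behind the values, estimated from the steps in which low values move, came to 5878753 to 6204664 at 10w, 5480779 to 5723594 at 7w and 5483307 to 5865213 in ND, so that every 10w library was deeper than every 7w library. At these depths 1 read in a gene of 1 kb was worth 0.161 to 0.182 FPKM, which makes a value near 1 FPKM rest on few reads. Because duplicates were removed and reads were single-end, no more than 1 read can remain per start and strand. Long genes could then not exceed 322 to 340 FPKM at 10w or 349 to 365 FPKM at 7w. Results on abundant genes are therefore given a second time with the values corrected for this limit. Adgre1, which encodes F4/80, stood at 191 to 204 FPKM at 10w and 197 FPKM in each 7w library, and Csf1r, the receptor for the macrophage growth factor, stood at 221 to 234 FPKM at 10w and 230 to 233 FPKM at 7w. Cd3e of T cells and Ncr1 of NK cells stayed at or under 3.03 FPKM in these 6 libraries. In a principal component analysis of the 6, component 1 (25.1% of the variance) put the 10w libraries at −0.02, 9.53 and 38.0 and the 7w libraries at −10.8, −19.2 and −17.5. The 10w libraries thus spread more widely than the 7w libraries, with 10w 3 the farthest out.

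Few genes were called between 10w and 7w, which does not show that the other genes were unchanged. With limma on log2(FPKM + 1), 15 genes were called at an adjusted p below 0.05, which is 0.127% of the genes tested. Of these, 12 rose (0.102%) and 3 fell (0.0255%) at 10w, and 6 of the 15 differed by at least 2-fold. At an unadjusted p below 0.05 there were 1829 genes, 15.5% of those tested. The median difference over all genes was −0.006 and the median size of a difference 0.16, against a median SE of 0.191 on the log2 scale. In 1156 genes (9.81%) all 10w libraries lay above all 7w libraries, and in 1277 genes (10.8%) all lay below. The number called depended on single libraries. It was 2 without 10w 2, 7w 2 or ND 2, 3 without 7w 3, 4 without 10w 3 or ND 1, 5 without 7w 1, 13 without ND 3 and 18 without 10w 1. A fit on the 6 CDA-HFD libraries alone called 4, of which S1pr5 was the 1 shared with the 15. All 15 called genes kept their direction in all 21 alternative settings, but none was called in every one. Themis2 was called in 19 of them, S1pr5 and Sesn1 in 15 each, and Dynlt3 and Mgst1 in 4 each.

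**Figure D1:**
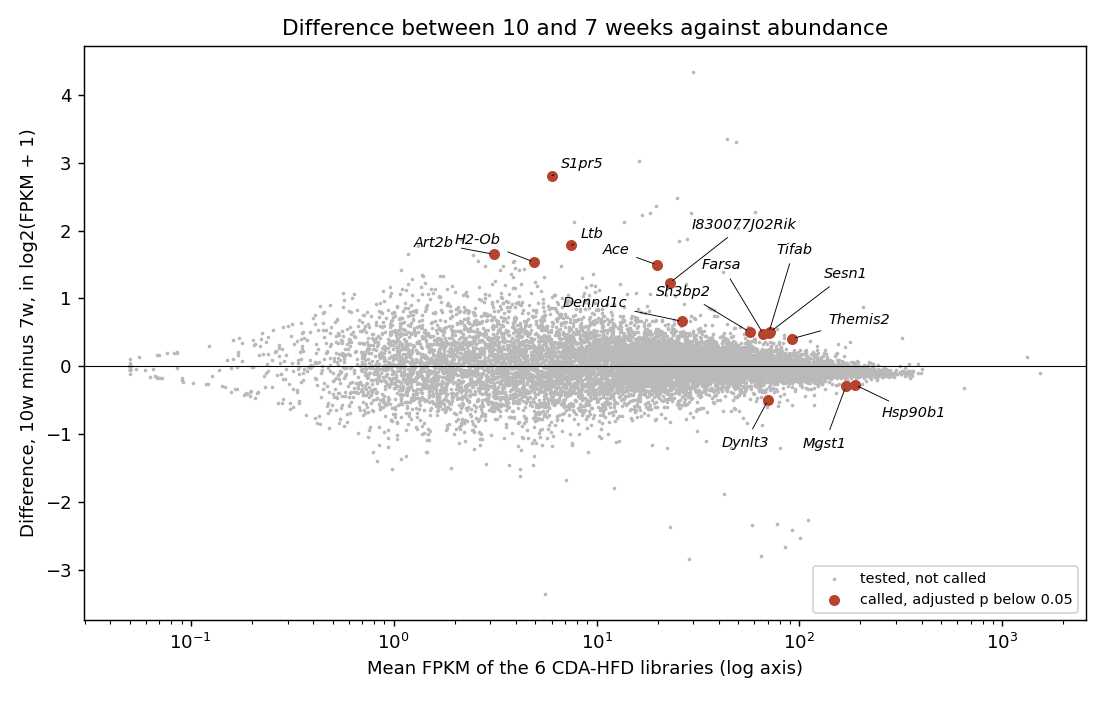
Difference between 10w and 7w in log2(FPKM + 1), on the y axis, for the 11783 genes tested, against the mean FPKM of the 6 CDA-HFD libraries on a log axis (means under 0.05 are drawn at 0.05). The 15 called genes are red and named: 12 lie above 0, up to S1pr5 at 2.81, and 3 lie below, down to Dynlt3 at −0.49.

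S1pr5 showed the largest fold among the called genes. It encodes a receptor for sphingosine 1-phosphate that is needed for the exit of NK cells and patrolling monocytes from bone marrow. It read 12.9, 10.5 and 10.3 FPKM in the 10w libraries, against 1.75, 0.456 and 0.307 FPKM in the 7w libraries. ND livers held 0.964, 0 and 0.877 FPKM, so 7w was near the ND level and 10w was well above both. The difference was 2.81 on the log2 scale (SE 0.37, 95% interval 2.01 to 3.61, adjusted p = 0.0175). The 7w values rest on few reads, so the exact fold is poorly fixed. The gene occupies chr9:21242912-21248443 of GRCm38 (minus strand).

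Ace rose as well. It encodes angiotensin-converting enzyme, a peptidase on the surface of endothelial cells and of patrolling monocytes. It stood at 30.6, 29.8 and 28.4 FPKM in 10w libraries and at 14.0, 8.34 and 8.11 FPKM in 7w libraries, with 1.19 to 1.98 FPKM in ND. The difference was 1.49 (SE 0.24, adjusted p = 0.0419), and the 10w libraries were tightly grouped and all clear of 7w. Ace was lost in 14 of the 21 alternatives, among them the omission of 10w 1, 10w 2, 10w 3, 7w 2, 7w 3, ND 1 or ND 2. The gene occupies chr11:105967945-105989964 (plus strand).

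Ltb and H2-Ob are genes of lymphoid and antigen-presenting cells. Both rose, as did Art2b, with low levels at 7w. Ltb encodes lymphotoxin beta, a membrane cytokine of the TNF family that lymphocytes use in the upkeep of lymphoid tissue. It read 10.1, 10.3 and 16.4 FPKM at 10w, against 2.45, 2.73 and 3.15 FPKM at 7w (difference 1.78, SE 0.24, adjusted p = 0.0175). H2-Ob encodes the beta chain of H2-O, which restrains peptide loading by H2-DM in B cells and some dendritic cells. It read 6.01, 7.43 and 10.2 FPKM at 10w, against 1.99, 1.84 and 2.21 FPKM at 7w (difference 1.53, SE 0.25, adjusted p = 0.0419). In both genes 10w 3 was the highest library, and no 10w library reached down to the 7w range. The 10w levels of both overlapped ND, which held 8.19 to 10.9 FPKM of Ltb and 7.95 to 11.6 FPKM of H2-Ob.

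Art2b encodes an ADP-ribosyltransferase of the cell surface that is known from T cells. It read 5.07, 4.07 and 6.59 FPKM in 10w libraries and 1.36, 0.783 and 0.791 FPKM in 7w libraries, a difference of 1.65 (SE 0.21, adjusted p = 0.0175). ND held 74.2 to 81.0 FPKM, so that Art2b was far below ND at both times of the diet and less so at 10w. In ND, Cd3e of T cells read only 1.17 to 2.37 FPKM. The 27 T and NK cell markers in the table together summed to 99.8 to 114 FPKM in ND. Which cells carried Art2b was not tested. The summed level of the 27 T and NK cell markers in the table did not separate the times, with 160.0 to 239.6 FPKM at 10w and 123.1 to 291.1 FPKM at 7w, and Tcf7 and Eomes were at 0 in all 6 libraries. B and plasma cell markers summed to 126.8 to 171.5 FPKM at 10w and 119.2 to 150.6 FPKM at 7w, with Pax5 and Cr2 at 0. In sorted cells measured in bulk, more cells of a kind and more RNA per cell cannot be told apart, and this holds for every gene below.

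The other risers were moderately abundant genes with small, tight differences. Themis2, which tunes the strength of receptor signals in B cells and macrophages, had the lowest adjusted p. It read 107, 103 and 105 FPKM at 10w, against 75.5, 80.8 and 80.4 FPKM at 7w, a difference of 0.41 (SE 0.05, adjusted p = 0.0130), while ND held 154 to 160 FPKM. Sesn1, a p53 target that restrains mTORC1 when amino acids are short, read 88.6, 85.0 and 79.1 FPKM at 10w and 61.9, 56.9 and 58.5 FPKM at 7w (difference 0.50, SE 0.07, adjusted p = 0.0175). Its ND level of 76.8 to 85.1 FPKM overlapped 10w and not 7w. Tifab, an inhibitor of TRAF6 signalling downstream of Toll-like receptors, read 76.8, 82.1 and 88.9 FPKM at 10w and 56.0, 62.9 and 56.8 FPKM at 7w (difference 0.49, SE 0.08, adjusted p = 0.0416). Dennd1c, a guanine nucleotide exchange factor for Rab35 in membrane traffic, averaged 32.6 ± 2.53 FPKM at 10w and 20.2 ± 0.801 FPKM at 7w (SD, n = 3 each; difference 0.66, adjusted p = 0.0419 with limma). In these 4 genes the 10w mean was nearer to ND than the 7w mean was, as it was in 8 of the 12 risers. Of all 11783 genes tested, 6459 were nearer to ND at 10w in the same way.

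Farsa and Sh3bp2 instead moved away from ND. Farsa encodes the catalytic subunit of phenylalanyl-tRNA synthetase and read 82.5, 74.4 and 75.6 FPKM at 10w, against 58.1, 55.5 and 53.01 FPKM at 7w and 62.1 to 65.6 FPKM in ND (difference 0.47, SE 0.07, adjusted p = 0.0289). Sh3bp2, an adaptor protein of immune receptor signalling that also promotes osteoclast formation, read 66.2, 67.3 and 67.4 FPKM at 10w, against 47.2, 49.7 and 44.1 FPKM at 7w and 46.4 to 53.6 FPKM in ND (difference 0.50, SE 0.08, adjusted p = 0.0419). Both were above either of the other groups in every 10w library. The remaining riser, the protein-coding gene I830077J02Rik, has no role stated in the annotation used here and read 34.9, 30.3 and 31.9 FPKM at 10w and 10.5, 11.7 and 18.5 FPKM at 7w (difference 1.23, SE 0.19, adjusted p = 0.0416).

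**Figure D2:**
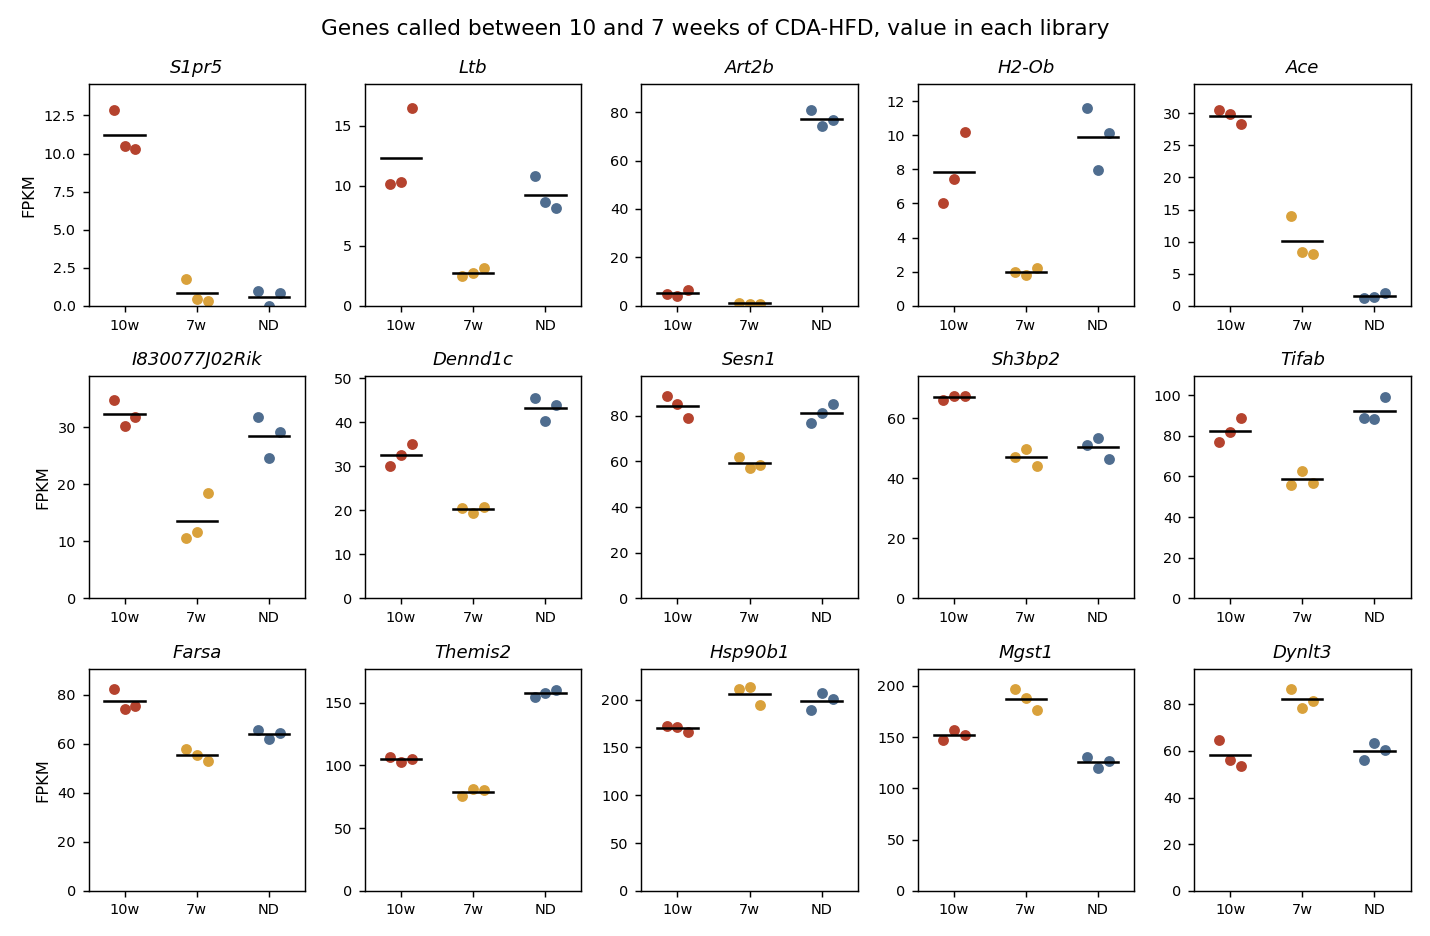
FPKM of the 15 called genes in each library, 1 panel per gene with its own axis from 0, for 10w, 7w and ND (points are libraries, 3 per group, and the line is their mean). The 10w and 7w points are separate in all 15 panels, and in Ace and S1pr5 the 10w points stand far above ND while in Art2b they stay far below.

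Only Hsp90b1, Mgst1 and Dynlt3 were called lower, and each fell by little. Hsp90b1 encodes GRP94, the HSP90 chaperone of the endoplasmic reticulum that folds Toll-like receptors and integrins. It read 172, 171 and 167 FPKM at 10w, against 211, 213 and 194 FPKM at 7w, and fell by 0.27 on the log2 scale (SE 0.04, adjusted p = 0.0419). Mgst1, a membrane-bound glutathione transferase that detoxifies lipid peroxides, read 147, 157 and 152 FPKM at 10w and 197, 188 and 176 FPKM at 7w, a fall by 0.30 (SE 0.05, adjusted p = 0.0419). Dynlt3, a light chain of cytoplasmic dynein, read 64.8, 56.3 and 53.5 FPKM at 10w and 86.6, 78.6 and 81.5 FPKM at 7w (difference −0.49, SE 0.08, adjusted p = 0.0461). With values corrected for the upper limit all 3 had an adjusted p of 0.0629, with differences of −0.36, −0.38 and −0.54, while all 12 higher calls remained. Their adjusted p over all alternatives ran from 0.0329 to 0.206 for Hsp90b1, from 0.0365 to 0.187 for Mgst1 and from 0.0379 to 0.188 for Dynlt3. Relative to ND, Mgst1 and Dynlt3 were nearer at 10w than at 7w, and Hsp90b1 (189 to 207 FPKM in ND) was farther.

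The 7 genes next in order of p among those lower at 10w did not pass the test. Qk, an RNA-binding protein that steers splicing in monocytes turning into macrophages, read 25.2, 19.4 and 21.9 FPKM at 10w and 36.8, 35.4 and 41.4 FPKM at 7w (difference −0.75, adjusted p = 0.0730). Fblim1, an adaptor of filamin at cell-matrix junctions, read 21.2, 20.2 and 23.9 FPKM at 10w and 33.5, 32.6 and 32.5 FPKM at 7w (difference −0.58, adjusted p = 0.0797). The other 5 were Ifi27, Stk17b, Cstb, Cetn3 and Ccl6, with differences of −0.39 to −0.15 and adjusted p of 0.0645 to 0.0797. In all 7 the 2 groups did not overlap. Among them Qk read 19.3 to 23.7 FPKM in ND, so that its 10w values overlapped ND and its 7w values did not.

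The direction of the small differences followed abundance. Among the 2637 genes with a mean of 20 to 50 FPKM, all 10w libraries lay above all 7w libraries in 13.5% and below in 8.12%. Among the 982 genes with a mean of 100 to 200 FPKM the shares were 4.48% above and 29.0% below, and among the 239 genes at 200 FPKM or more they were 0.418% and 58.2%. Corrected for the upper limit, the shares below were 19.8% and 27.6% in these last 2 bins, and those above 6.62% and 2.93%. Over all genes the corrected values gave 10.4% above and 9.04% below. Genes capped in every library stay lower at 10w by depth alone, so the correction cannot test them. The median difference stayed small in every bin, from −0.092 at 200 FPKM or more to 0.038 at 20 to 50 FPKM. A list of abundant genes must therefore be read against its bin, and the part that the unequal depth of the libraries has in its differences was not tested.

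**Figure D3:**
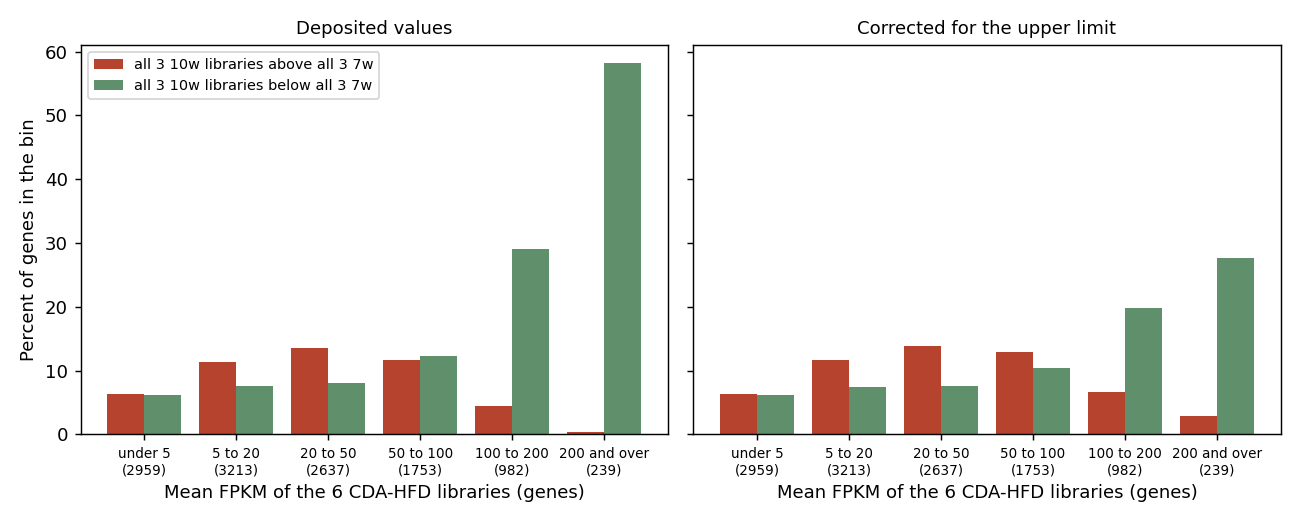
Percent of the genes in each bin of mean FPKM (x axis, gene numbers in brackets) in which all 3 10w libraries lay above (red) or below (green) all 3 7w libraries, as deposited (left) and corrected for the upper limit (right). At 200 FPKM or more 58.2% lay below as deposited and 27.6% after the correction.

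Some patrolling monocyte genes other than S1pr5 and Ace also lay high at 10w, while others did not. Of 30 tested members of this list 13 (43.3%) had every 10w library above every 7w library and 1 (3.33%) had every one below. Over all genes the shares were 9.81% and 10.8%. At 50 to 100 FPKM, where the list's median level of 68.4 FPKM falls, they were 11.6% and 12.3%. Differences were positive in 17 members and negative in 13, with a median of 0.078, and Ace was the only member called. Both counts were the same after the correction, and the median was then 0.12. The members described next, like those of the later lists, were picked after their values were seen unless they are called. Eno3, an enolase, read 55.3, 45.1 and 48.1 FPKM at 10w and 24.9, 31.4 and 31.9 FPKM at 7w (difference 0.74, adjusted p = 0.0637). Pglyrp1, a secreted peptidoglycan recognition protein, read 34.4, 22.01 and 45.0 FPKM at 10w and 6.47, 4.005 and 6.25 FPKM at 7w (difference 2.37, adjusted p = 0.0858). Neither passed the test, although neither overlapped, and both were called with a pseudocount of 5.

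The transcription factor Nfe2 also did not overlap and did not pass. It read 13.5, 13.8 and 12.7 FPKM at 10w and 6.09, 6.63 and 3.46 FPKM at 7w (difference 1.20, adjusted p = 0.134). Spn, the sialophorin CD43 that marks patrolling monocytes in flow cytometry, read 18.9, 23.9 and 20.1 FPKM at 10w and 12.8, 11.2 and 9.80 FPKM at 7w (difference 0.84, adjusted p = 0.127). Cd300e, an activating receptor of this cell type, read 61.4, 71.0 and 75.9 FPKM at 10w and 49.6, 39.1 and 56.3 FPKM at 7w (difference 0.52, adjusted p = 0.0949). The defining factor Nr4a1 did not go with them, at 157, 136 and 154 FPKM at 10w and 136, 136 and 166 FPKM at 7w (difference 0.03, 95% interval −0.72 to 0.78). Gngt2, a G protein subunit and the member with all 10w libraries below, read 319, 325 and 340 FPKM at 10w and 375, 356 and 341 FPKM at 7w (difference −0.12, adjusted p = 0.123). Among the other negative members Dusp5, a phosphatase of ERK, differed by −0.51, the Notch target Hes1 by −0.50 and the factor Klf2 by −0.38, all with overlap. Treml4 differed by −0.01 (−0.10 to 0.09) and Cx3cr1, the fractalkine receptor, by 0.13 (−0.36 to 0.63), and both overlapped. Summed over the list, 10w libraries held 2499.8 to 2663.6 FPKM and 7w libraries 2443.0 to 2567.0 FPKM.

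Interferon-stimulated genes lay mostly higher at 10w, without a single call. These genes are switched on after type I interferon and limit the spread of viruses. Of 51 tested members, 19 (37.3%) had all 10w libraries above all 7w libraries and none below, against 9.81% and 10.8% of all genes. Of the 51, 39 had a positive difference, and the median was 0.21. After the correction the counts were again 19 and 0 and the median 0.25. Leaving out 1 library at a time gave medians of 0.15 to 0.28, with the lowest without 10w 3. At an unadjusted p below 0.05 17 members were higher and 0 lower. Ifi27, an interferon-inducible gene that is not on this list, went the other way. It read 110, 114 and 108 FPKM at 10w and 145, 135 and 126 FPKM at 7w (difference −0.29, adjusted p = 0.0645).

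Usp18, which removes ISG15 from proteins and dampens the interferon receptor, read 87.8, 81.4 and 109 FPKM at 10w and 63.2, 57.2 and 67.1 FPKM at 7w (difference 0.55, adjusted p = 0.0797). Slfn1, a member of the schlafen family, read 42.9, 39.6 and 57.7 FPKM at 10w and 24.9, 25.2 and 25.2 FPKM at 7w (difference 0.85, adjusted p = 0.0845). Ifit3, an antiviral protein that binds IFIT1, read 56.1, 53.7 and 63.0 FPKM at 10w, against 38.6, 34.0 and 44.2 FPKM at 7w (difference 0.56, adjusted p = 0.0906). All 3 were highest in 10w 3. Irf7, the factor that amplifies interferon production, read 162, 166 and 191 FPKM at 10w and 138, 123 and 153 FPKM at 7w (difference 0.33, adjusted p = 0.114). Stat2 read 41.5, 50.6 and 48.3 FPKM at 10w and 30.9, 36.1 and 35.9 FPKM at 7w (difference 0.44, adjusted p = 0.181). ND held 63.8 to 83.8 FPKM of Ifit3 and 206 to 226 FPKM of Irf7, above both times, but only 7.62 to 10.6 FPKM of Slfn1, below both.

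The promoters of Ifit3 and Stat2 are printed because both carry the interferon-stimulated response element, a site through which type I interferon switches genes on. The letters searched were GAAA, any 2 bases and GAAA again, or the reverse complement TTTC, any 2 bases and TTTC, in the window of 250 bases before to 50 after the start site from RefSeq (GRCm38.p6), and capitals mark each match. The window of Ifit3 is chr19:34583279-34583578 and that of Stat2 chr10:128270248-128270547, both on the plus strand and 5′ to 3′.
Ifit3: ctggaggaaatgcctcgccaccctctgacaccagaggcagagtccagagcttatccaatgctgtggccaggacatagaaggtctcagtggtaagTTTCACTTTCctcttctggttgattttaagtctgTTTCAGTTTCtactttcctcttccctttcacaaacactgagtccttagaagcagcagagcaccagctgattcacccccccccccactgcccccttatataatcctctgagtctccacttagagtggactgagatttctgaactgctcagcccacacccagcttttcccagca
Stat2: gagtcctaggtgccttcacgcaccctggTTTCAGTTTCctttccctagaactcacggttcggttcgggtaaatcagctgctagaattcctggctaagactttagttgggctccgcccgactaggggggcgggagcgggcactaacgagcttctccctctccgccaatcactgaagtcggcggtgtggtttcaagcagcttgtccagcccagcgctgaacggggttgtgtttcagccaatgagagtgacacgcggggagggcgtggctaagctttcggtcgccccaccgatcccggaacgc
Of 38 list members with a RefSeq promoter 24 (63.2%) held the motif, against 356 of 9007 tested genes (3.95%) and 3.44% of all 32851 promoters. Of these 24, 7 had all 10w libraries above all 7w libraries (median difference 0.064), and of the 14 without it 8 did (median 0.27). Members with the motif did not stand higher than those without, and absence of a match says only that these letters are not in this window.

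**Figure D4:**
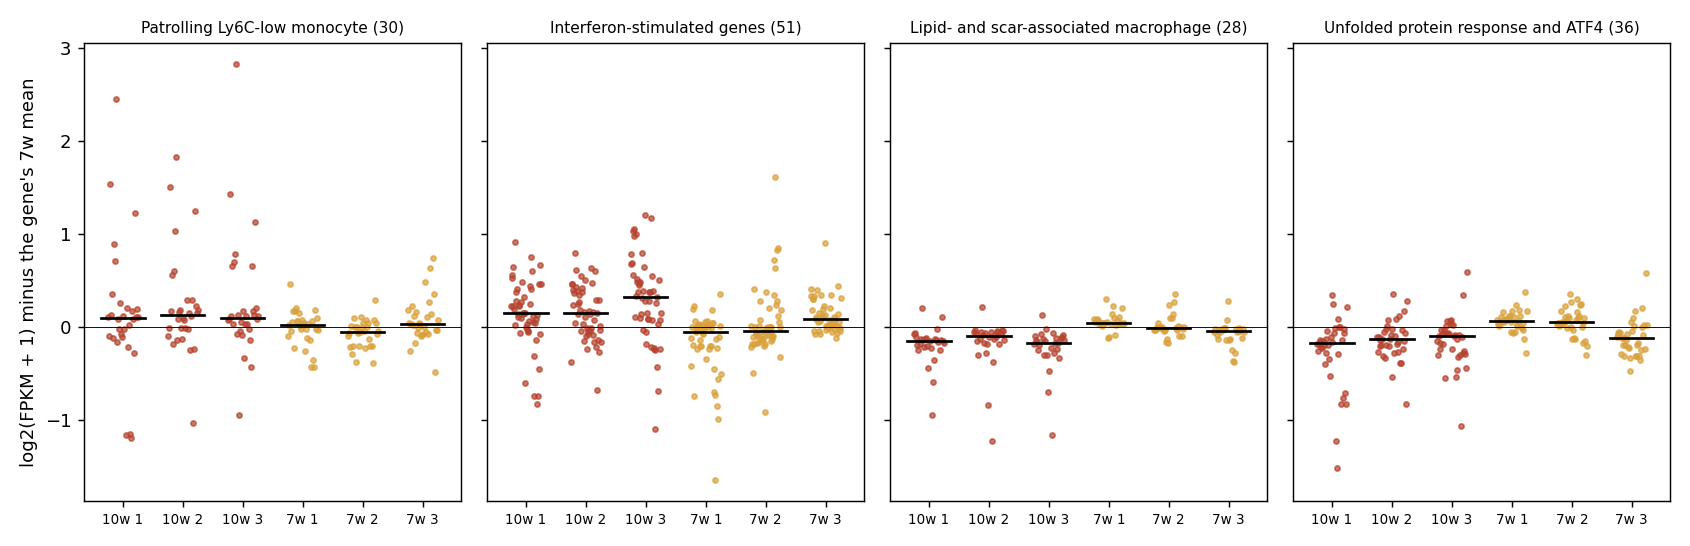
Members of 4 gene lists in each CDA-HFD library, as log2(FPKM + 1) minus the gene's mean over the 3 7w libraries (y axis), with 1 point per gene and a line at the median of each library. The medians are above 0 at 10w for patrolling monocyte (30 genes) and interferon-stimulated genes (51) and below 0 for lipid- and scar-associated macrophage genes (28) and unfolded protein response genes (36), and single genes scatter widely in every library.

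Genes of the unfolded protein response and of ATF4, which answer misfolded protein in the endoplasmic reticulum and amino acid shortage, lay mostly lower at 10w. Of 36 tested members 9 (25%) lay below and 1 (2.78%) above in all 10w libraries, against 10.8% and 9.81% of all genes. A negative difference was seen in 31 members, and the median was −0.14. After the correction 8 lay below and 1 above, with a median of −0.16. Hsp90b1 was the called member. Dnajc3, a cochaperone that also inhibits PERK, read 43.1, 45.1 and 38.7 FPKM at 10w and 60.1, 67.1 and 46.0 FPKM at 7w (difference −0.42, adjusted p = 0.138). Canx, the lectin chaperone calnexin, read 121, 116 and 114 FPKM at 10w and 135, 137 and 129 FPKM at 7w (difference −0.19, adjusted p = 0.0950). Hspa5, the central chaperone BiP, overlapped, with 235, 248 and 241 FPKM at 10w and 280, 273 and 247 FPKM at 7w (difference −0.14, adjusted p = 0.208).

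The promoters of Hsp90b1, Dnajc3 and Canx are shown for the endoplasmic reticulum stress response element, bound by ATF6 together with NF-Y. The letters searched were CCAAT, any 9 bases and CCACG, or the reverse complement CGTGG, any 9 bases and ATTGG, in the same window, with matches in capitals. The windows are chr10:86705395-86705694 on the minus strand for Hsp90b1, chr14:118937682-118937981 on the plus strand for Dnajc3 and chr11:50325624-50325923 on the minus strand for Canx.
Hsp90b1: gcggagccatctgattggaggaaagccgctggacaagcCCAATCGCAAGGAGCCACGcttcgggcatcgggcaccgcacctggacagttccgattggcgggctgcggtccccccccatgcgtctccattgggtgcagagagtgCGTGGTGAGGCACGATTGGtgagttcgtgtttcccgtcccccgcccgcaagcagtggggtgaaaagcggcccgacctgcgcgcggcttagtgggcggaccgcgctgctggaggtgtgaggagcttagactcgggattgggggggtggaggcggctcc
Dnajc3: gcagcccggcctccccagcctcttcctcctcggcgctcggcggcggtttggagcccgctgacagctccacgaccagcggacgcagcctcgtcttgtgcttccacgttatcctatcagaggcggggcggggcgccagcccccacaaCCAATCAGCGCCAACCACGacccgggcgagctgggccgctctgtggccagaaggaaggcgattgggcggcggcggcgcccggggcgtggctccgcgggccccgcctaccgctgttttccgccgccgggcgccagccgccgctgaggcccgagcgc
Canx: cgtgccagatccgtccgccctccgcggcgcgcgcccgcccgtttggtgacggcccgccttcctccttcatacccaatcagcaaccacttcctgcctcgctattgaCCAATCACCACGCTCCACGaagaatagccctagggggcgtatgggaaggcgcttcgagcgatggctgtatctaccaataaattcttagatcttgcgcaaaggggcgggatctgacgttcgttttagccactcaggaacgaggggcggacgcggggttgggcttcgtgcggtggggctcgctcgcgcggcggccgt
Hsp90b1 held 2 matches, 1 in each orientation. The motif was found in 7 of 31 list members with a promoter (22.6%), against 14 of 9007 tested genes (0.155%) and 0.119% of the 32851 promoters. The 7 were Calr, Canx, Creld2, Dnajc3, Hsp90b1, Hspa5 and Pdia6. Of these 7, 4 lay below in every 10w library (median difference −0.19), and of the 24 without the motif 4 lay below and 1 above (median −0.14).

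Genes of lipid- and scar-associated macrophages lay lower at 10w by small amounts. Of 28 tested members 18 lay below and 1 above in all 10w libraries, 27 had a negative difference and the median was −0.13, with none called. After the correction 15 lay below and 1 above (median −0.14), and leaving out single libraries gave medians of −0.18 to −0.12. Quantile normalization brought the median to −0.064. The list is abundant, with a median level of 168 FPKM, and 29.0% of all genes of 100 to 200 FPKM lay below in the same way. Its summed level was 4485.2 to 4682.5 FPKM at 10w and 4875.0 to 5264.7 FPKM at 7w. Itgax, the CD11c integrin chain, was the member above, at 104, 105 and 98.5 FPKM at 10w and 90.7, 90.1 and 88.6 FPKM at 7w (difference 0.19, 95% interval −0.01 to 0.38).

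Atp6v0d2, a subunit of the lysosomal proton pump in macrophages and osteoclasts, had the widest gap of the list. It read 24.2, 19.7 and 20.6 FPKM at 10w and 52.5, 50.8 and 39.7 FPKM at 7w, against under 0.64 FPKM in ND (difference −1.11, SE 0.22, adjusted p = 0.0857). It was called when only the 6 CDA-HFD libraries were fitted and with a pseudocount of 5. Mmp13, a collagenase, read 45.2, 34.0 and 37.6 FPKM at 10w and 57.0, 54.7 and 75.2 FPKM at 7w (difference −0.66, adjusted p = 0.178). Fabp5, a carrier of fatty acids, read 118, 114 and 118 FPKM at 10w and 149, 145 and 129 FPKM at 7w (difference −0.26, adjusted p = 0.151). None of the 3 overlapped between the times.

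The best-known genes of this cell type showed no difference that the test could detect. As deposited, Spp1, Trem2, Cd9 and Gpnmb each had every 10w library below every 7w library. After the correction Cd9 and Gpnmb still did, while Spp1 and Trem2 overlapped. Spp1, the secreted phosphoprotein osteopontin, read 256, 260 and 237 FPKM at 10w and 286, 263 and 260 FPKM at 7w, against 0.900 to 8.65 FPKM in ND (difference −0.10, 95% interval −1.55 to 1.34). Trem2, the lipid-sensing receptor, averaged 224 ± 4.31 FPKM at 10w and 234 ± 8.08 FPKM at 7w (difference −0.06, −0.58 to 0.45). Cd9 differed by −0.10 (−0.22 to 0.02) and Gpnmb by −0.17 (−1.08 to 0.74). The wide intervals of Spp1 and Gpnmb go with the scatter of their low ND values, which share 1 estimate of spread with the CDA-HFD libraries. Clec4e, the receptor Mincle that senses dying cells, overlapped at 101 ± 13.6 FPKM at 10w and 120 ± 18.3 FPKM at 7w (difference −0.24, −0.56 to 0.07).

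**Figure D5:**
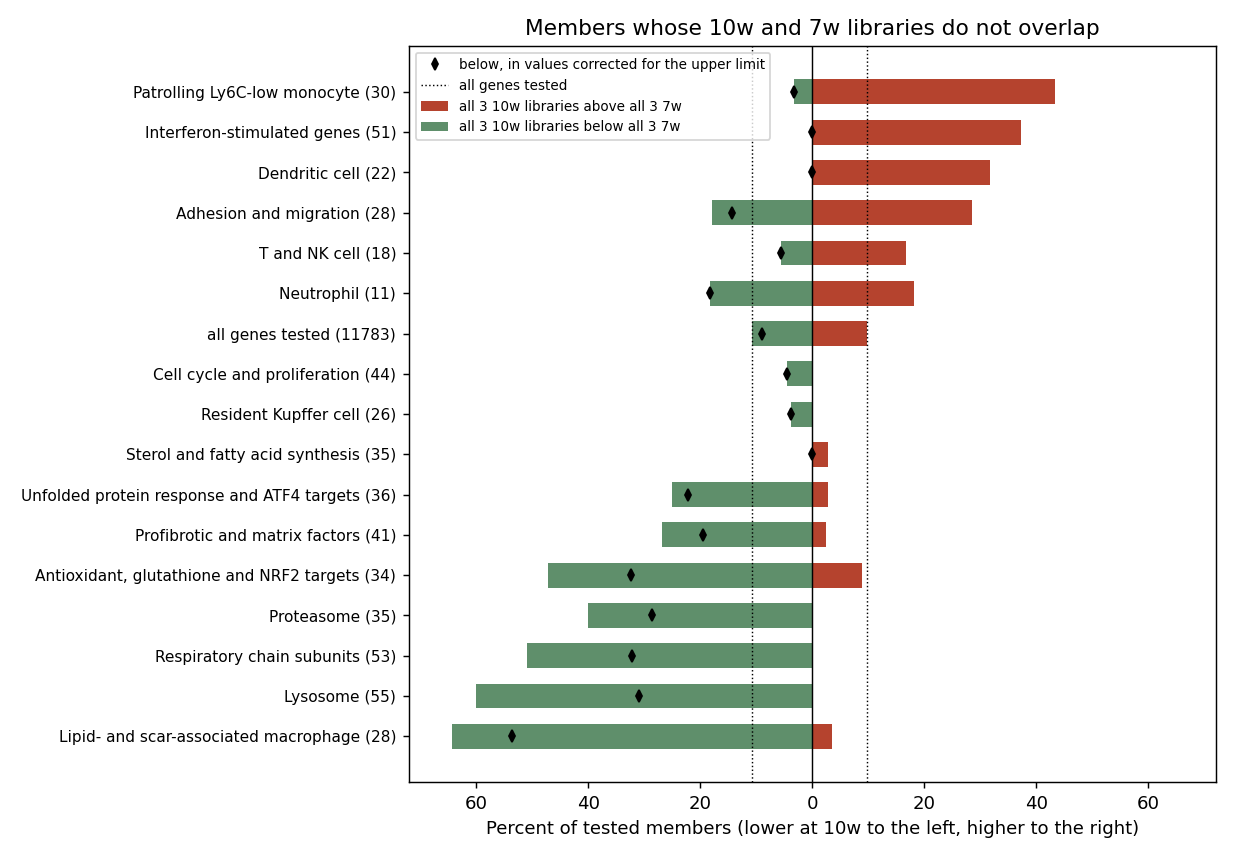
Percent of tested members (number in brackets) whose 3 10w libraries all lay above (red, to the right) or all below (green, to the left) the 3 7w libraries, for 16 gene lists and all genes tested. Dotted lines mark 9.81% above and 10.8% below over all genes, and diamonds give the share below after the correction for the upper limit, which for the lysosome list is 17 of 55 genes in place of 33.

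Other abundant groups of housekeeping genes also lay lower at 10w. All 10w libraries lay below all 7w libraries in 33 of 55 lysosome genes, 27 of 53 respiratory chain subunits and 14 of 35 proteasome subunits, and above in none. Their median differences were −0.089, −0.095 and −0.088, and quantile normalization brought them to −0.018, −0.026 and −0.020. After the correction 17, 17 and 10 lay below and 1, 1 and 0 above. These 3 lists have median levels of 131.0, 169.0 and 125.6 FPKM, within the range where 29.0% of genes lay below as deposited and 19.8% after the correction. None of their members was called.

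Antioxidant genes under NRF2 included the called Mgst1. Of 34 tested members 16 (47.1%) lay below and 3 (8.82%) above as deposited, against 10.8% and 9.81% of all genes. After the correction 11 (32.4%) lay below and 3 above, against 9.04% and 10.4% of all genes. The medians were −0.12 in each, and −0.055 after quantile normalization. Cat, the catalase that breaks down hydrogen peroxide, read 106, 115 and 110 FPKM at 10w and 135, 127 and 125 FPKM at 7w (difference −0.22, adjusted p = 0.0949). Prdx1, a peroxiredoxin, read 182, 195 and 181 FPKM at 10w and 212, 210 and 202 FPKM at 7w (difference −0.16, adjusted p = 0.0949). Neither passed the test. The list's median level of 122.0 FPKM again falls in the abundant range. At 100 to 200 FPKM 29% of genes lay below as deposited and 19.8% after the correction.

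Profibrotic and matrix factors were a list of lower abundance (median level 20.6 FPKM). Of 41 tested members 11 (26.8%) lay below and 1 (2.44%) above in all 10w libraries, against 10.8% and 9.81% of all genes. None was called. The median was −0.14, and leaving out single libraries gave −0.22 to −0.14. After the correction for the upper limit 8 (19.5%) lay below and 1 above, against 9.04% and 10.4% of all genes. Vegfa, the vascular growth factor, read 41.1, 32.1 and 24.9 FPKM at 10w, 50.6, 49.6 and 53.7 FPKM at 7w, and was listed at 0 in all ND libraries (difference −0.66, adjusted p = 0.149). The 39 hypoxia and glycolysis genes, which include Vegfa, had 8 (20.5%) below and 2 (5.13%) above, and 6 (15.4%) and 2 after the correction. Their median was −0.13 (−0.18 to −0.079 when single libraries were left out). Chemokines and their receptors had 9 of 30 (30%) below and 1 (3.33%) above, and 7 (23.3%) and 1 after the correction. Ccr2, the receptor that brings monocytes out of bone marrow, stood at 149 ± 13.4 FPKM at 10w and 141 ± 2.91 FPKM at 7w (difference 0.08, 95% interval −0.19 to 0.34).

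Kupffer cell genes as a group differed little in their median, and of this list only Marco separated the times. Of 26 tested members only Marco (3.85%) had all 10w libraries below all 7w libraries, and none had all above. Over all genes the shares were 10.8% below and 9.81% above. At 100 to 200 FPKM, where the list's median level of 114.8 FPKM falls, they were 29% and 4.48%. The median difference of the list was −0.070, or −0.002 after quantile normalization. Leaving out single libraries gave medians of −0.13 (without 10w 3) to −0.002. Marco, a scavenger receptor for bacteria and particles, read 21.2, 27.8 and 32.4 FPKM at 10w and 53.2, 50.5 and 92.1 FPKM at 7w, against 161 to 223 FPKM in ND (difference −1.20, SE 0.26, adjusted p = 0.114). Timd4, which binds phosphatidylserine on dying cells, read 2.21, 4.65 and 8.10 FPKM at 10w and 14.6, 6.53 and 18.5 FPKM at 7w, against 200 to 207 FPKM in ND (difference −1.26, adjusted p = 0.206). In Timd4 10w 3 overlapped 7w 2. Cd163, another member of the list, differed by −1.14 (adjusted p = 0.291), also with overlap. Clec4f, a lectin specific to Kupffer cells, read 165, 162 and 186 FPKM at 10w and 169, 146 and 186 FPKM at 7w (difference 0.04, 95% interval −0.14 to 0.22). Vsig4, the complement receptor, differed by −0.10 (−0.35 to 0.15) and Cd5l by −0.04 (−0.19 to 0.11), both with overlap.

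Egr2, the zinc finger factor that the study follows, showed no difference between the times that the test could detect. It read 64.7, 58.4 and 54.9 FPKM at 10w and 50.6, 63.0 and 72.7 FPKM at 7w, so that every 10w library fell inside the 7w range, while ND held 1.60, 2.28 and 11.4 FPKM. The difference was −0.05 with a 95% interval of −1.31 to 1.21 (adjusted p = 0.978), a wide interval that goes with the scatter of ND. Fitted on the 6 CDA-HFD libraries alone, the interval was −0.33 to 0.22. Over the alternatives the difference ran between −0.19 and 0.07. The 8 tested Egr and Nr4a factors had none above and none below in all 10w libraries, against 9.81% and 10.8% of all genes. At these shares counts of 0 among 8 genes say little about the family.

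Dendritic cell genes lay high at 10w at low levels. Of 22 tested members 7 (31.8%) lay above in all 10w libraries and none below, against 9.81% and 10.8% of all genes. The median difference was 0.34, with medians of 0.25 to 0.57 when single libraries were left out. Cd209a, a lectin of monocyte-derived dendritic cells, read 7.80, 7.95 and 24.2 FPKM at 10w and 2.27, 0.408 and 4.12 FPKM at 7w (difference 2.13, adjusted p = 0.0949). Flt3, the growth factor receptor that drives dendritic cell development, read 4.15, 3.15 and 4.77 FPKM at 10w and 1.79, 0.807 and 1.12 FPKM at 7w (difference 1.18, adjusted p = 0.122). H2-Oa, the partner chain of H2-Ob, read 12.4, 6.42 and 19.4 FPKM at 10w and 3.44, 4.53 and 4.57 FPKM at 7w (difference 1.30, adjusted p = 0.147). None passed the test. The list's summed level was 419.3 to 531.5 FPKM at 10w and 402.7 to 410.9 FPKM at 7w, with Xcr1, Itgae and Siglech under 1 FPKM and Ffar2 at 0 in all 6 libraries, and its part in the rise of Ltb and H2-Ob was not tested.

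The 18 tested T and NK cell genes had 3 (16.7%) above and 1 (5.56%) below, against 9.81% and 10.8% of all genes. Their median was 0.51, which ran from 0.20 to 0.83 when single libraries were left out. Lck, the kinase of the T cell receptor, read 3.70, 5.13 and 9.97 FPKM at 10w and 0.389, 2.55 and 1.60 FPKM at 7w (difference 1.54, adjusted p = 0.123). Of the neutrophil list 11 genes were tested, with 2 (18.2%) above and 2 (18.2%) below. Of its 24 members 7, Cxcr1 and Stfa1 among them, were at 0 in all 6 libraries. Neutrophil markers summed to 239, 194 and 422 FPKM at 10w and 213, 233 and 187 FPKM at 7w, so that 10w 3 stood apart. Retnlg, a resistin-like protein of granulocytes, read 48.9, 26.4 and 166 FPKM at 10w and 14.4, 0.859 and 6.51 FPKM at 7w (difference 3.35, adjusted p = 0.283). On the other side, S100a8, a subunit of calprotectin, read 36.6, 39.4 and 38.7 FPKM at 10w and 68.2, 101 and 48.3 FPKM at 7w (difference −0.84, adjusted p = 0.320). The collagenase Mmp8 likewise lay below in all 10w libraries (difference −0.72, adjusted p = 0.246). Sinusoidal endothelial markers also reached their highest sum in 10w 3, at 423.6 FPKM, in a range from 167.9 FPKM upward at 10w and of 179.2 to 321.9 FPKM at 7w.

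Separations were few in some of the remaining lists and many in others, against 9.81% above and 10.8% below over all genes. Proliferation genes had none above and 2 below of 44, with a median of 0.022 that ran from −0.050 to 0.11 when single libraries were left out. Sterol and fatty acid synthesis had 1 above and none below of 35, with a median of 0.029 that ran from −0.021 to 0.12. Of 28 adhesion and migration genes 8 (28.6%) lay above and 5 (17.9%) below, S1pr5 being the called one. Of 15 genes of MHC class II presentation 3 (20%) lay above, among them the called H2-Ob, and 5 (33.3%) below. The 5 differed by little, from −0.11 (Ctss) to −0.06 (H2-Aa). This list has a median level of 122.1 FPKM, and at 100 to 200 FPKM 29% of all genes lay below and 4.48% above. Of 22 p53 targets 4 (18.2%) lay above and 1 (4.55%) below, and Sesn1 alone was called. Of 27 hepatocyte genes none lay above and 3 (11.1%) below. The scar-associated macrophage signature that the study uses had 28 of 45 (62.2%) below and 1 above (20 and 2 after the correction). Its Kupffer cell signature had 40 of 118 (33.9%) below and 4 above (30 and 5). These signatures are abundant as well, with median levels of 194.6 and 129.8 FPKM, in the range where 29% of all genes lay below.

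Few of the large differences were called. A difference of at least 2-fold was seen in 189 genes, 117 of them higher and 72 lower at 10w, and 6 of these were called. In 84 of the higher and 38 of the lower genes the 10w and 7w libraries did not overlap. Over all genes the shares were 9.81% and 10.8%, but genes chosen for a large difference separate more often by that choice alone. At 4-fold or more there were 24 genes, of which 18 were small RNAs and the others Cd209a, G0s2, H2-Q6, Pglyrp1, Retnlg and S1pr5, and S1pr5 was the only one called. G0s2, an inhibitor of lipid breakdown that granulocytes also express, read 22.6, 20.9 and 87.8 FPKM at 10w and 8.53, 2.18 and 7.69 FPKM at 7w (difference 2.48, adjusted p = 0.0950). H2-Q6, a class I gene, was near 0 in all 10w libraries (up to 0.183 FPKM) and at 6.29, 17.5 and 9.54 FPKM at 7w, with an adjusted p of 0.140. It was called in the fit on the 6 CDA-HFD libraries and without ND 3. It belongs to a family of similar class I genes between which reads could be split, and its level is uncertain.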

How the data were processed

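Wild-type mice received CDA-HFD for 10 or 7 weeks or a normal diet, and bulk RNA-seq was made from sorted Ly6C-low F4/80-positive liver cells, 3 libraries per group. Groups and replicate numbers came from the sample labels, which give the replicates as biological.

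The authors used SMART-Seq HT and Nextera XT and single-end sequencing. Their processing notes name Trimmomatic (0.36.0), HISAT2 (2.2.1), featureCounts (2.0.1) and GRCm38 (mm10), and their methods Picard for duplicates. The deposited values were FPKM per symbol. The methods speak of TPM, but the columns do not share a total. Of 24776 entries 1 was incomplete, and entries that share a symbol (721 for 257 symbols) were summed. No read counts were used, so depth is an estimate: of the low values, 63.5% to 69.8% were whole reads to within 0.1.

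limma (3.58.1, R 4.3.3, trend and robust) was fitted on log2(FPKM + 1) to all 9 libraries with 3 group means. This scale understates the change of low genes. Tests were two-sided with Benjamini-Hochberg adjustment over 11783 genes, and calls were made at adjusted p below 0.05. Lists were described by counts and medians, without a test of the list. The correction assumes 1 read per start and strand and caps values at 0.95 of the limit. Genes at the cap in every library differ after it only by depth, so the correction cannot test them. Locations are from the GRCm38 annotation. Named genes were the called ones (I830077J02Rik, outside the rule for its unnamed model, was added after its values were seen), the next lower ones by p up to 10, and 16 fixed genes. Other list members were picked after their values were seen. The members and lists were chosen with earlier results of these data known. Alternatives were other pseudocounts (0.1 and 5), filters, scalings, fits and left-out libraries.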

Additional observations from a re-analysis of the deposited data

How the results depend on the processing

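The 15 called genes kept their direction in all 21 alternatives, while the count moved. It was 5 with a pseudocount of 0.1, 4 with only the 6 CDA-HFD libraries in the fit (1 shared with the 15, S1pr5) and 2 without trend and robust (0 shared, with 1526 genes at an unadjusted p below 0.05), and 2 to 18 when single libraries were left out. Calls of at least 2-fold numbered 6, against 2 with a pseudocount of 0.1, 1 without trend and robust, and 1 to 6 without single libraries. Called genes on any list numbered 8, against 3 with a pseudocount of 0.1, 4 without a filter, 4 with the 6 libraries, 5 with quantile normalization, 5 with scaling to TPM, 0 without trend and robust, and 1 to 7 without single libraries. The split of 12 higher and 3 lower became 11 and 0 with quantile normalization or scaling to TPM, and 12 and 0 once values were corrected for the upper limit. The cause of these changes was not tested. Same-numbered 10w and 7w libraries had deviations from their group means that correlated at 0.092, 0.016 and 0.043. Differently numbered ones had correlations from −0.104 to 0.067. With 3 libraries per group these values cannot decide whether replicate numbers pair the samples. With the replicate block 17 genes were called, 16 higher and 1 lower, 10 of them among the 15, and Usp18, Ifit3 and Irf7 were among the others; 7 differed by at least 2-fold and 10 were on a list. By more than 1 SD of a list's level between libraries of a group, quantile normalization moved the medians of 10 lists, and leaving out single libraries moved a median in 5 cases; smaller moves were common, and some medians near 0 changed sign. At these depths low genes such as S1pr5 at 7w rest on few reads.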
